A study of Homo sapiens with 12 samples.

Results

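The Wnt receptor genes were followed in the RNA of HEYA8 cells. They were the 8 Frizzled genes FZD1 to FZD8 and the co-receptor genes LRP5 and LRP6, taken by symbol from the deposited table of raw counts, so that there were 10 members among 56269 genes. The cells, an established ovarian cancer line labelled as high grade serous, were sequenced in 12 libraries, 3 each for control vector, ∆GAG-BG, S534A and S545A. Betaglycan (BG), the product of TGFBR3, is a co-receptor for TGF-β that carries glycosaminoglycan (GAG) chains. ∆GAG-BG is betaglycan that carries both the S534A and the S545A change and no GAG chains, S534A is the single mutant that the study names CS-BG for its mainly chondroitin sulfate chains, and S545A is the single mutant named HS-BG for its mainly heparan sulfate chains. The study's methods give a lentiviral pHIV-dTomato backbone for the betaglycan constructs, with sorting of the infected cells for dTomato, and full-length betaglycan was not analysed here. How the control vector cells were made, and how many sorted populations stand behind a group, is not given in the sources used here. All were harvested at steady state in growth medium, with no treatment named, from RPMI-1640 that held 10% FBS. S545A 3 has a title that reads S545S and a genotype label that reads S545A, and was used as S545A.

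Frizzled proteins are receptors that cross the membrane several times and bind Wnt ligands through a cysteine-rich outer domain. LRP5 and LRP6 cross the membrane once and join a Frizzled when a Wnt binds both, after which Dishevelled and Axin are drawn to the membrane and β-catenin is spared from destruction. Frizzleds also carry signals that do not use β-catenin or LRP5 and LRP6, including those of planar cell polarity. Heparan sulfate proteoglycans at the cell surface can bind Wnt ligands. The study profiled the lines at steady state to find genes whose expression differs with the chains on betaglycan. All 6 pairs of its 4 groups were compared here for the Wnt receptor genes.

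Libraries held 16410001 to 29504297 counts, and 3 counts, the upper limit behind a count of 0, are worth at most 0.182 CPM (in the shallowest library, CPM being counts scaled to the TMM-adjusted library size). Such limits cover counting error only. TGFBR3 went against the labels of libraries 2 and 3 in 2 groups. It was at 259, 20.3 and 21.4 CPM in the libraries labelled ∆GAG-BG 1, 2 and 3 and at 15.9, 259 and 259 CPM in those labelled control vector, against 413 to 476 CPM in S534A and 520 to 574 CPM in S545A. In S545A, ∆GAG-BG and control vector, libraries 2 and 3 lay close together (chi-square over degrees of freedom 1.40, 1.99 and 1.44, against 17.4 to 77.9 in the other pairs within a group), and nothing in the labels gives separate cultures, so p-values measure the spread between libraries, which may be technical. Pairs across groups ran from 3.94 (S534A 1 with S545A 1) to 123 (S534A 2 with ∆GAG-BG 1). S534A 3 with control vector 2 was at 4.18, closer than S534A 3 with S534A 1 (17.4). Libraries thus did not always lie nearest to those of their own group. S534A 2 stood apart from the other 11 libraries at -62.1 on the first principal component of log2 CPM (35.3% of the variance, others -15.8 to 23.3), and ∆GAG-BG 1 stood apart by 11852 CPM of the chaperone gene HSPA5 (others 287 to 3902 CPM). The epithelial markers PAX8 (193 to 295 CPM), KRT7, KRT8 and KRT18 were present, whereas CDH1 and MUC16 had 0 counts in every library. WT1 was at 3.41 to 8.37 CPM and EPCAM at 0.367 to 1.76 CPM. The mesenchymal markers VIM, CDH2 and FN1 were present, and leukocyte markers summed to at most 0.188 CPM. Of the endothelial markers CDH5 was at 168 to 431 CPM, VWF at 2.63 to 14.9 CPM and PECAM1 at 0.205 to 0.767 CPM.

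All 10 members passed the filter on low counts. Levels are given as RPKM, counts divided by the TMM-scaled library size and by the exon length in the deposited table, since levels of different genes can be compared only per length. FZD6 had a mean level of 25.9 ± 2.02 RPKM (SD, n = 12) and FZD2 of 21.3 ± 3.62 RPKM (SD, n = 12). The co-receptors followed, LRP5 at 11.5 ± 1.36 RPKM (SD, n = 12) and LRP6 at 10.1 ± 0.826 RPKM (SD, n = 12). A lower tier held FZD8 (1.62 RPKM), FZD7 (1.54 RPKM), FZD5 (1.41 RPKM), FZD1 (1.13 RPKM) and FZD4 (1.12 RPKM), and FZD3 was at 0.0677 RPKM from 12 to 40 counts a library. The Frizzled genes FZD9 and FZD10, which are no members, had 0 counts in all 12 libraries, which allows at most 0.182 CPM.

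**Figure D1:**
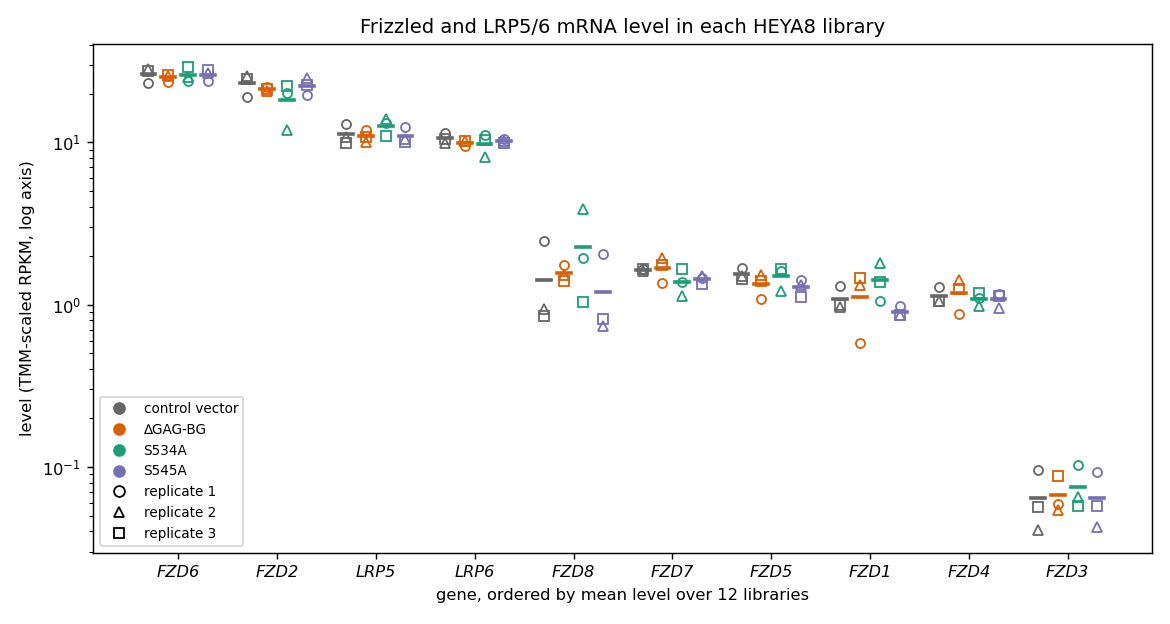
Level of each Wnt receptor gene in each of the 12 libraries, in TMM-scaled RPKM on a log axis. Colours stand for the 4 groups, symbols for replicate numbers and bars for group means (n = 3). FZD6 and FZD2 lie at 11.997 to 29.1 RPKM, both LRP genes at 8.12 to 13.9 RPKM, 5 Frizzled genes at 0.579 to 3.86 RPKM and FZD3 at 0.0410 to 0.103 RPKM.

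The order of neighbouring genes was read within each library. FZD6 was above FZD2 in 12 of 12 libraries, FZD2 above LRP5 in 11 of 12 and LRP5 above LRP6 in 10 of 12, although the ranges of each of these pairs over the 12 libraries overlapped. LRP6 was above FZD8, and FZD4 above FZD3, in 12 of 12 libraries with no overlap of the ranges. Within the lower tier the ranges of each pair of neighbours overlapped. FZD8 was above FZD7 in 5 of 12 libraries, FZD7 above FZD5 in 8 of 12, FZD5 above FZD1 in 10 of 12 and FZD1 above FZD4 in 4 of 12.

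FZD6, a Frizzled best known from planar cell polarity and hair patterning, varied least among the members. Its level was 23.1, 28.1 and 27.6 RPKM in control vector libraries 1, 2 and 3, 23.6, 25.7 and 26.1 RPKM in ∆GAG-BG, 23.9, 25.2 and 29.1 RPKM in S534A, and 23.7, 26.8 and 27.8 RPKM in S545A. Replicate 1 was the lowest library of each group, and all 4 groups overlapped. The SD of its log2 CPM was 0.11, at percentile 17.8 of the 16069 genes tested, whose median SD was 0.21. In GRCh38, FZD6 spans 103298433 to 103332866 of the plus strand of chromosome 8. It overlaps 138 exon bases of the antisense gene BAALC-AS1, which had 22 to 108 counts a library, and the use of strand in counting was not given in the sources used here.

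FZD2, a receptor of WNT5A and WNT3 that signals with and without β-catenin, was at 19.0, 25.8 and 24.6 RPKM in control vector libraries 1, 2 and 3 and at 22.0, 20.7 and 21.3 RPKM in ∆GAG-BG. In S534A it was at 20.3, 11.997 and 22.2 RPKM, and in S545A at 19.5, 25.0 and 22.7 RPKM. S534A 2 was the lowest library, and the other 11 lay between 19.0 and 25.8 RPKM. FZD2 is a gene of 1 exon on chromosome 17 from 44557459 to 44559570 on the plus strand.

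FZD6 and FZD2 together made up 80.4 to 90.5% (median 87.3%) of the summed RPKM of FZD1 to FZD8, and FZD2 stood at 0.476 to 0.931 of FZD6 (median 0.823). S534A 2 was at the low end of both, with 80.4% and a ratio of 0.476. Summed over FZD1 to FZD8, the level was 56.3 ± 4.98 RPKM in control vector, 53.4 ± 1.82 in ∆GAG-BG, 52.0 ± 6.04 in S534A and 54.5 ± 3.59 in S545A (SD, n = 3 each). The groups overlapped in the summed level in each of the 6 comparisons. Two-sided exact permutation p was 0.5 to 0.7, and 0.7 after Benjamini-Hochberg adjustment over the 6. As p cannot go below 0.1 with 3 against 3, this test could not have called a difference. It therefore does not decide whether the summed level differs between groups. In S545A against control vector, where replicate numbers were taken as pairs, the summed level was lower in S545A in 3 of 3 pairs, by -0.203 to -2.74 RPKM (exact paired permutation p = 0.25, the smallest that 3 pairs allow). Libraries 2 and 3 lay close together in both groups, so pairs 2 and 3 are hardly separate. The differences of the means ran from -4.34 RPKM for S534A against control vector to 2.53 RPKM for S545A against S534A. The former was -1.57 RPKM without S534A 2, -2.53 RPKM without control vector 2, -7.53 RPKM without S534A 3 and -7.19 RPKM without control vector 1. The sign of the latter turned without S534A 2 (-0.205 RPKM), as did that of S534A against ∆GAG-BG (from -1.46 to 1.47 RPKM).

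**Figure D2:**
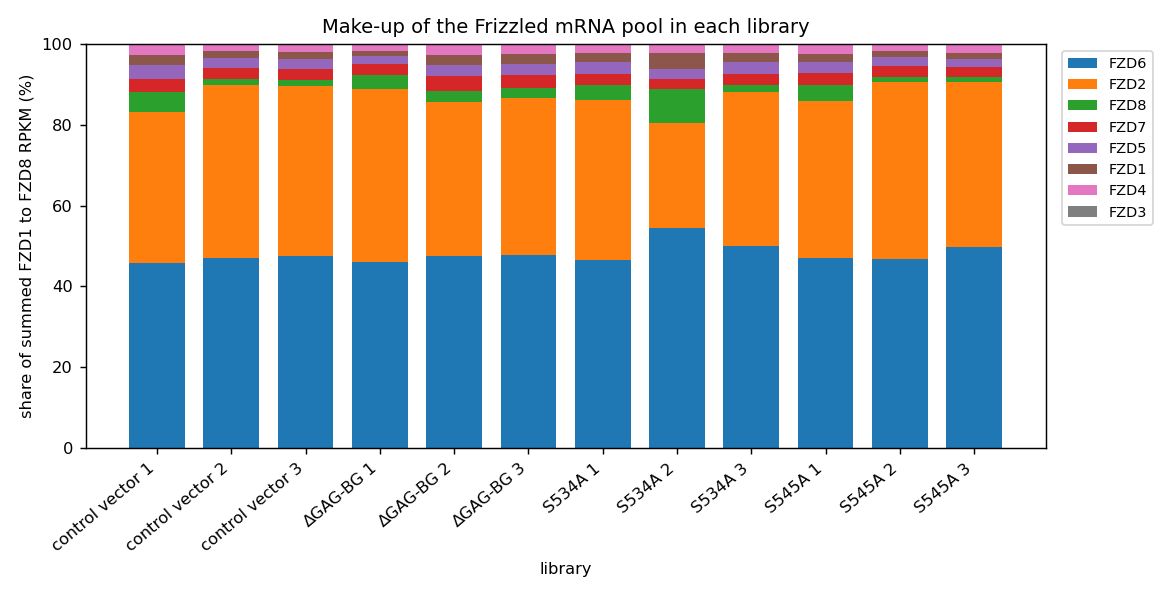
Share of each Frizzled gene, in percent, in the summed RPKM of FZD1 to FZD8 in each of the 12 libraries. Each bar is 1 library. FZD6 holds 45.7 to 54.5% and FZD2 25.9 to 43.6%, and FZD8 runs from 1.29% in S545A 2 to 8.35% in S534A 2.

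FZD8, a Frizzled with high affinity for Wnt ligands whose cysteine-rich domain is used as a Wnt trap, varied most among the members. It was at 2.48, 0.935 and 0.854 RPKM (289, 80 and 88 counts) in control vector libraries 1, 2 and 3, and at 1.76, 1.52 and 1.39 RPKM (157, 132 and 124 counts) in ∆GAG-BG. In S534A it was at 1.93, 3.86 and 1.04 RPKM (219, 467 and 69 counts), and in S545A at 2.06, 0.741 and 0.813 RPKM (214, 61 and 96 counts). S534A 2 was the highest library, followed by replicate 1 of control vector, S545A, S534A and ∆GAG-BG, and the groups overlapped. The range was 5.21-fold, and the SD of log2 CPM, 0.73, was at percentile 97.7 of the genes tested. FZD8 is a gene of 1 exon on chromosome 10 from 35638249 to 35642278 on the minus strand.

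The level of FZD8 ran along the main axis of variation between the libraries. The 5 libraries with a negative first principal component, S534A 2 (-62.1), control vector 1 (-15.8), S545A 1 (-14.0), S534A 1 (-13.1) and ∆GAG-BG 1 (-2.00), were the 5 with the highest FZD8, and they hold libraries of all 4 groups. Other members varied with FZD8 or against it. Over the 12 libraries the Pearson correlation of log2 CPM with FZD8 was 0.882 for LRP5, 0.627 for FZD3, -0.880 for FZD2 and -0.761 for FZD6. Without S534A 2 it was 0.830 for LRP5, 0.793 for FZD3, -0.894 for FZD2 and -0.896 for FZD6. The other 5 members had correlations with FZD8 of -0.398 to 0.434, and of 0.0056 to 0.528 without S534A 2. These correlations describe libraries that share cells, depth and this axis, and neither the axis nor the replicate number has a batch in the labels, so what the axis stands for was not tested.

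**Figure D3:**
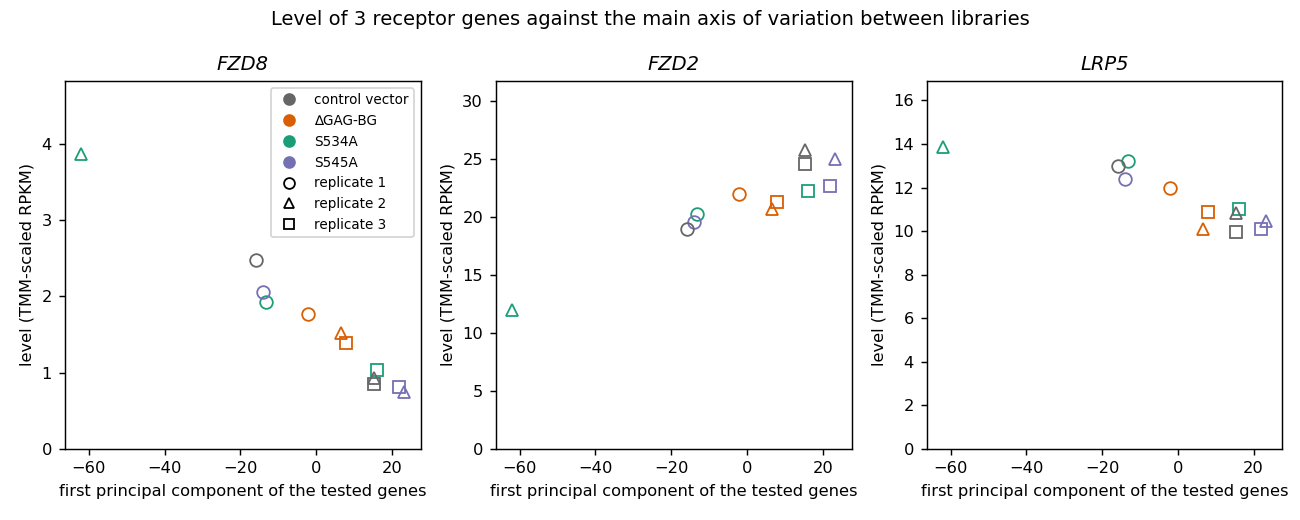
Level of FZD8, FZD2 and LRP5 in TMM-scaled RPKM against the first principal component of log2 CPM over the 16069 genes tested, with 1 point a library. Colours stand for groups and symbols for replicate numbers. FZD8 falls from 3.86 RPKM in S534A 2, at the far left, to 0.741 RPKM in S545A 2, at the far right, and FZD2 rises from 11.997 RPKM to between 22.2 and 25.8 RPKM in the 5 libraries on the right.

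The genes whose log2 CPM followed FZD8 most closely over the 12 libraries were GTPBP4 (Pearson correlation 0.986), BCAP31 (0.985) and TRAF2 (0.979). They spanned 123 to 164 CPM, 183 to 260 CPM and 40.5 to 78.5 CPM, and the correlations without S534A 2 were 0.977 to 0.982.

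FZD1, a receptor of WNT3A and other ligands, was at 1.31, 0.960 and 0.989 RPKM (263, 142 and 176 counts) in control vector libraries 1, 2 and 3, and at 0.579, 1.32 and 1.45 RPKM (89, 198 and 224 counts) in ∆GAG-BG. In S534A it was at 1.05, 1.81 and 1.38 RPKM (205, 377 and 158 counts), and in S545A at 0.973, 0.858 and 0.863 RPKM (175, 122 and 176 counts). The lowest library, ∆GAG-BG 1, was the one with the highest HSPA5, and the highest, S534A 2, was the one with the lowest HSPA5 (287 CPM). Whether this has a part in the level of FZD1 was not tested. Every S545A library was below every S534A library, and the SD of log2 CPM, 0.43, was at percentile 84.6 of the genes tested.

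The genes that followed FZD1 most closely over the 12 libraries were ERCC3 (Pearson correlation 0.975, 57.4 to 77.2 CPM), TCF19 (0.962, 24.1 to 84.7 CPM) and DYNLL1 (0.958, 99.8 to 200 CPM). Without S534A 2 the correlations were 0.947 to 0.966. FZD1 is a gene of 1 exon on chromosome 7 from 91264364 to 91271326 on the plus strand.

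FZD4, FZD5 and FZD7 changed by at most 1.72-fold over the 12 libraries. FZD4, the receptor of norrin in retinal vessels, was at 1.29, 1.06 and 1.05 RPKM in control vector libraries 1, 2 and 3, 0.877, 1.41 and 1.24 RPKM in ∆GAG-BG, 1.10, 0.980 and 1.18 RPKM in S534A, and 1.17, 0.955 and 1.13 RPKM in S545A. All groups overlapped. FZD4 (chromosome 11, 86945679 to 86955391, minus strand) overlaps 1399 exon bases of PRSS23 on the opposite strand, and PRSS23 was at 242 to 468 CPM against 6.48 to 10.4 CPM for FZD4. As the strand setting is not given, reads of the overlap cannot be assigned to either gene, and the level of FZD4 is uncertain.

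FZD5, a Frizzled of the intestinal epithelium and the eye, was at 1.68, 1.51 and 1.44 RPKM in control vector, 1.08, 1.52 and 1.40 RPKM in ∆GAG-BG, 1.60, 1.22 and 1.66 RPKM in S534A, and 1.42, 1.33 and 1.11 RPKM in S545A. Every S545A library was below every control vector library, and ∆GAG-BG 1 was the lowest of all. FZD7, which is expressed in stem cells and in several carcinomas, was at 1.66, 1.61 and 1.65 RPKM in control vector, 1.36, 1.94 and 1.77 RPKM in ∆GAG-BG, 1.38, 1.12 and 1.65 RPKM in S534A, and 1.46, 1.51 and 1.34 RPKM in S545A. Here too every S545A library was below every control vector library. Both genes lie on chromosome 2, FZD5 from 207762586 to 207769563 on the minus strand and FZD7 from 202034587 to 202038445 on the plus strand.

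FZD3, a Frizzled of axon guidance and planar cell polarity, was near the limit of what could be compared at this depth. It had 38, 12 and 20 counts in control vector libraries 1, 2 and 3 (0.0953, 0.0410 and 0.0567 RPKM), 18, 16 and 27 counts in ∆GAG-BG (0.0591, 0.0539 and 0.0884 RPKM), 40, 27 and 13 counts in S534A (0.103, 0.0653 and 0.0572 RPKM) and 33, 12 and 23 counts in S545A (0.0927, 0.0426 and 0.0569 RPKM). The groups overlapped. FZD3 lies on chromosome 8 from 28494205 to 28574268 on the plus strand.

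LRP5, a co-receptor known from bone mass and retinal vessels, was at 13.0, 10.8 and 9.96 RPKM in control vector libraries 1, 2 and 3, 11.97, 10.1 and 10.9 RPKM in ∆GAG-BG, 13.2, 13.9 and 11.0 RPKM in S534A, and 12.4, 10.5 and 10.1 RPKM in S545A. LRP6, the paralogous co-receptor whose tail is phosphorylated on Wnt binding, was at 11.5, 9.88 and 10.4 RPKM in control vector, 9.55, 10.2 and 10.1 RPKM in ∆GAG-BG, 11.1, 8.12 and 10.3 RPKM in S534A, and 10.5, 10.1 and 9.95 RPKM in S545A. S534A 2 had the highest LRP5 and the lowest LRP6 of the 12 libraries, and its LRP5 to LRP6 ratio of 1.71 was above the 0.954 to 1.25 of the other 11. The group means of the ratio were 1.06 to 1.32, and the groups overlapped in each of the 6 comparisons. Exact permutation p was 0.2 to 0.9 over them, and 0.84 to 0.9 after adjustment. As p cannot go below 0.1 with 3 against 3, this test could not have called a difference. It therefore does not decide whether the ratio differs between groups. LRP5 lies on chromosome 11 from 68312609 to 68449275 on the plus strand and LRP6 on chromosome 12 from 12116025 to 12267012 on the minus strand. No stretch of 100 bases was shared between the transcripts of any 2 members, so reads of that length could be told apart among them.

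**Figure D4:**
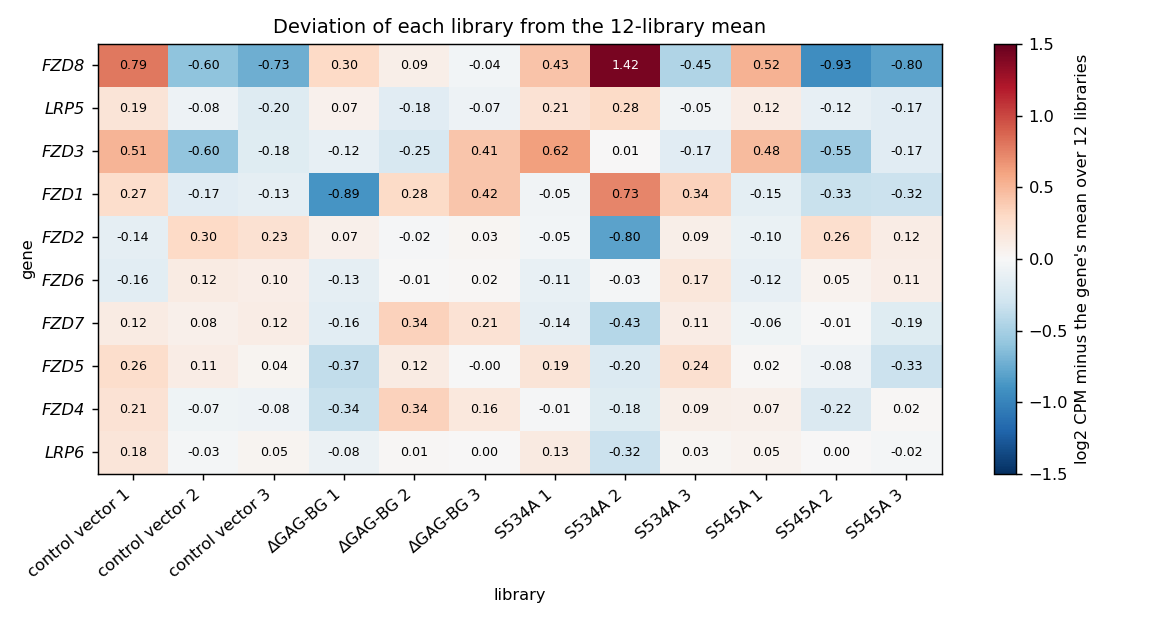
Log2 CPM of each Wnt receptor gene in each library, less the gene's own mean over the 12 libraries. Red is above and blue below that mean, and the value stands in each cell. S534A 2 holds the extremes for FZD8 (1.42) and FZD2 (-0.80), and ∆GAG-BG 1 the lowest value of FZD1 (-0.89).

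The promoters of the members that varied most or together are shown, from RefSeq on GRCh38.p14, each from 250 bases before to 50 bases after the annotated start and read on the strand of the gene. The promoter table held 5 of the 10 members, FZD1, FZD4, FZD5, FZD8 and LRP5, and did not hold FZD2, FZD3, FZD6, FZD7 or LRP6. FZD8 (chr10:35642247-35642546, minus strand) and LRP5 (chr11:68312341-68312640, plus strand) varied together, and FZD1 (chr7:91264183-91264482, plus strand) is the member whose S545A and S534A libraries did not overlap. Capitals mark matches on either strand to the GC box GGGCGG, to the CCAAT box or to the TATA box in the form TATAAA, none of which overlapped another in these windows.
FZD8: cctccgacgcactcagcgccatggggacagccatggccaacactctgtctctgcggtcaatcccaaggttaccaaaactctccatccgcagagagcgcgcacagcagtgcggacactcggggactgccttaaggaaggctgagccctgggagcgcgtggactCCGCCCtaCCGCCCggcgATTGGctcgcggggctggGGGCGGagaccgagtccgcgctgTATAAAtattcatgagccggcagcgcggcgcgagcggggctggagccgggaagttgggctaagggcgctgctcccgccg
LRP5: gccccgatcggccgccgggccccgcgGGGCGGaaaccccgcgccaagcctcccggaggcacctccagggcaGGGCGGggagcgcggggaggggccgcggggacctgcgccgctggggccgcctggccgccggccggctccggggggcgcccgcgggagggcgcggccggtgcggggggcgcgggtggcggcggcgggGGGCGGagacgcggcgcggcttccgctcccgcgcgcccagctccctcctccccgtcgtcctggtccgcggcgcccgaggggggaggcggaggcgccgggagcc
FZD1: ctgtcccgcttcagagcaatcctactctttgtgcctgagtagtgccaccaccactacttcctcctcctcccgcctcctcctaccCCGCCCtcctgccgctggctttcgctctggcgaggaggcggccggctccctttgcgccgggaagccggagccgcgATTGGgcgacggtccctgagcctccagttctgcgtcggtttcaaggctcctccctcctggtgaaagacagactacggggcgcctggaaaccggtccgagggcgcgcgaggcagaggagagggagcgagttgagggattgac

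Matches to GGGCGG were found at 3 places in FZD8, 3 in LRP5 and 1 in FZD1, and 45.0% of all 35116 promoters of that table held at least 1. CCAAT was found once in FZD8 and once in FZD1, at -70 and -91 from the start, and in 34.6% of all promoters. TATAAA was found in FZD8, at -29 from the start, and in 11.5% of all promoters. The letters CTTTGAT, a core of the TCF/LEF site, were in none of the 5 promoters and in 2.62% of all. GC made up 67.0% of the FZD8, 86.7% of the LRP5 and 65.7% of the FZD1 promoter, against a median of 58.7%. These matches describe the letters of the windows and are not measured sites.

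No member passed the test in any comparison. By edgeR's quasi-likelihood test over 16069 genes with Benjamini-Hochberg adjustment, 0 of 10 members had an adjusted p under 0.05 in each of the 6 comparisons and in the F test over the 4 groups, where 0% of all genes were called in each comparison and 0.00622% in the F test. DESeq2, limma-voom and limma after quantile normalization likewise gave 0 members in all of these. At an unadjusted p under 0.05, 1 member was under the threshold in 1 comparison, FZD1 in S545A against S534A, and 0 in the other 5 and in the F test (1.55% of all genes in the F test). Members and other genes are read from the RNA of whole cultures, where fewer cells of a kind and less RNA per cell cannot be told apart. The comparisons share groups, so they are not independent of each other.

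S545A against S534A compares the single mutants. TGFBR3 was high in every library of both (413 to 476 CPM in S534A and 520 to 574 CPM in S545A). Its level therefore cannot check which single mutant a library carries. FZD1 was at 6.25 ± 0.455 CPM in S545A and 9.81 ± 2.65 CPM in S534A (SD, n = 3 each), a log2 fold change of -0.65 (SE 0.294, 95% interval -1.29 to -0.0088, unadjusted p = 0.0474, adjusted p = 0.702 by edgeR). The exact permutation p was 0.1, the smallest that 3 against 3 allow. Of all genes tested, 4.78% had an unadjusted p under 0.05 and 10.1% had groups that did not overlap, beside 1 of the 10 members for each. The unadjusted p of FZD1 rested on single libraries. By edgeR it was 0.0223 without S534A 1 (log2 fold change -0.82), but 0.208 without S534A 2 (log2 fold change -0.42), 0.0688 without S534A 3, 0.0656 without S545A 1, 0.1005 without S545A 2 and 0.103 without S545A 3. Without S534A 3, 3 other members (FZD2, FZD8 and LRP5) were under 0.05, and the smallest adjusted p of the members was 0.305 by edgeR. For fits with libraries left out, here and below, the share of all genes under 0.05 is not given. Those counts of members therefore have no background beside them.

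FZD8 had the largest difference of the members in this comparison and also the widest interval. It was at 4.85 ± 2.98 CPM in S545A and 9.18 ± 5.82 CPM in S534A (SD, n = 3 each), a log2 fold change of -0.93 (95% interval -2.11 to 0.24, unadjusted p = 0.109 by edgeR), and the groups overlapped. That value was -0.32 without S534A 2 and -1.56 without S545A 1. FZD2 had a log2 fold change of 0.31 (95% interval -0.12 to 0.73), and 0.079 without S534A 2. The other members were FZD3 at -0.24 (95% interval -1.07 to 0.59), FZD5 at -0.21 (-0.57 to 0.15) and LRP5 at -0.21 (-0.49 to 0.065). That of FZD5 was -0.34 without S534A 2, -0.13 without S534A 3 and -0.12 without S545A 3. FZD7 was at 0.059 (-0.31 to 0.43), LRP6 at 0.052 (-0.18 to 0.29), FZD6 at 0.0037 (-0.23 to 0.23) and FZD4 at 0.00076 (-0.38 to 0.38). For FZD6 and LRP6, changes beyond 0.29 on the log2 scale lay outside the 95% interval, whereas for FZD8 a change of up to -2.11 lay within it. Like the p-values, these intervals measure the spread between libraries, which may be technical, and set no limit on a change between separate cultures. The median over the 10 members was -0.10, against -0.00024 over all genes tested.

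**Figure D5:**
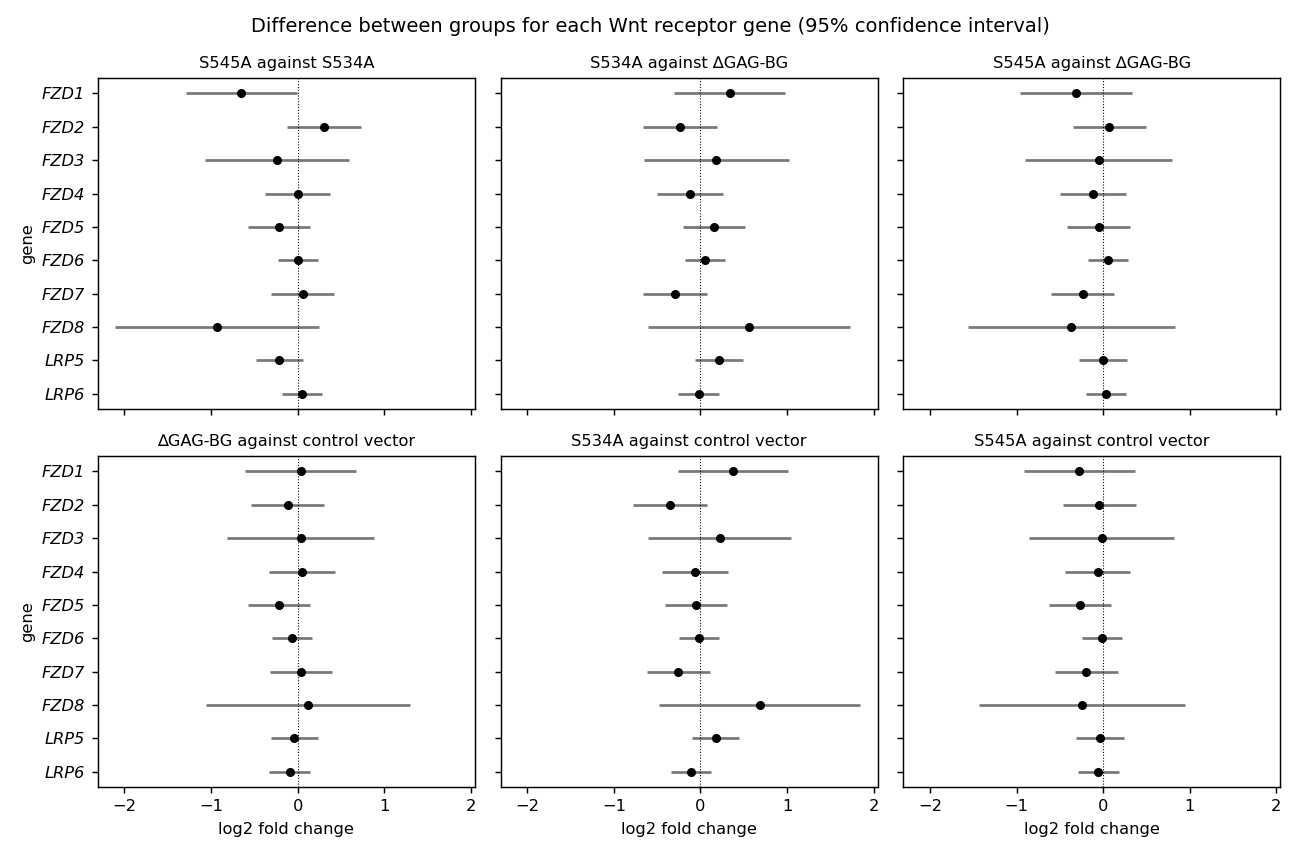
Log2 fold change of each Wnt receptor gene in the 6 comparisons, with 95% confidence intervals from edgeR's model of 12 libraries (first group against second, points at the fitted value). FZD1 in S545A against S534A (-1.29 to -0.0088) is the interval that leaves out 0, and FZD8 has the widest interval in each comparison.

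S534A against the libraries labelled ∆GAG-BG gave 0 members at an unadjusted p under 0.05, where 2.99% of all genes had one, and 0 members whose groups did not overlap (5.66% of all genes). The log2 fold changes ran from -0.30 (FZD7) to 0.57 (FZD8), with a median of 0.11. The count was 2 without S534A 3 (FZD7 and LRP5) and 1 without ∆GAG-BG 1 (FZD7). S545A against ∆GAG-BG also gave 0 members on both counts (1.10% and 5.05% of all genes), with log2 fold changes from -0.37 (FZD8) to 0.071 (FZD2), and 2 members (FZD1 and FZD7) were under 0.05 without ∆GAG-BG 1. ∆GAG-BG against control vector gave 0 members on both counts (0.871% and 4.87% of all genes), with log2 fold changes from -0.21 (FZD5) to 0.12 (FZD8). Both of these labelled groups held libraries with high and with low TGFBR3. The counts and the overlap therefore hold only for the groups as labelled. In S534A against control vector, again 0 members passed either count (3.45% and 7.65% of all genes), and log2 fold changes ran from -0.35 (FZD2) to 0.69 (FZD8). There the count was 3 without control vector 1 (FZD2, FZD8 and LRP5) and 2 without S534A 3 (FZD2 and FZD7). Without the 4 libraries in which TGFBR3 went against the label, FZD8 was at -0.12 and FZD2 at -0.086.

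S545A against control vector had 0 members at an unadjusted p under 0.05 (1.05% of all genes) and 2 members whose groups did not overlap, where 8.82% of all genes had such groups. FZD5 was at 8.64 ± 1.05 CPM in S545A and 10.4 ± 0.826 CPM in control vector (SD, n = 3 each), a log2 fold change of -0.26 (SE 0.164, unadjusted p = 0.135 by edgeR). FZD7 was at 5.53 ± 0.343 CPM in S545A and 6.33 ± 0.0981 CPM in control vector (SD, n = 3 each), a log2 fold change of -0.20 (SE 0.167, unadjusted p = 0.262 by edgeR). The value of FZD5 was -0.17 without S545A 3. For both genes the exact permutation p was 0.1, the smallest for 3 against 3 without pairing, and with the replicate numbers as pairs S545A was lower in 3 of 3 pairs (exact paired permutation p = 0.25, the smallest that 3 pairs allow). Pairs 2 and 3 are hardly separate, as libraries 2 and 3 lay close together in both groups. The fitted log2 fold changes of the 10 members ran from -0.27 (FZD1) to -0.0099 (FZD6), with a median of -0.061 against 0.00052 over all genes.

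Without the 4 libraries in which TGFBR3 went against the label, ∆GAG-BG and control vector are left with 1 library each, taken to vary like the other groups. With 1 library in a group, only effect sizes are read from that fit, and no count of genes passing a test. FZD1 then had a log2 fold change of 1.28 in S534A against ∆GAG-BG 1, in place of 0.34 with all libraries. In ∆GAG-BG 1 against control vector 1 it was at -1.19, in place of 0.039. In S545A against ∆GAG-BG its sign turned, from -0.31 to 0.63. These values rest on ∆GAG-BG 1, the library with the highest HSPA5. Without the 4 libraries the fitted sign turned for several of the 10 members. Against ∆GAG-BG it turned for 3 members in S534A and for 6 in S545A. Against control vector it turned for 7 members in ∆GAG-BG, 4 in S534A and 2 in S545A, and in S545A against S534A for FZD4 alone. The log2 fold change of FZD8 against control vector went from 0.12 to -0.51 in ∆GAG-BG and from -0.25 to -1.06 in S545A. That of FZD2 against control vector went from -0.045 to 0.22 in S545A. FZD6 turned from -0.0099 to 0.16 in S545A, and FZD5 went from -0.21 to -0.65 in ∆GAG-BG, both against control vector. In S545A against S534A, whose 2 groups hold none of the 4 libraries, FZD1 stayed at -0.65. The 4 libraries do enter the spread estimated by the model of 12 libraries, and that estimate changed without them.

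The other genes of the pathway were counted from lists of other receptors and receptor regulators (18 of 27 genes tested), ligands and secreted antagonists (12 of 37), transducers (39 of 40) and β-catenin target genes (15 of 21). None had an adjusted p under 0.05 in any of the 6 comparisons or in the F test by edgeR. The medians of the list log2 fold changes lay between -0.18 and 0.062. At an unadjusted p under 0.05, S545A against S534A gave 0 receptor genes, 1 ligand, 1 transducer and 1 target gene, the last 2 both being LEF1, where 4.78% of all genes had such a p. S534A against ∆GAG-BG gave 3 of the receptor list, 1 ligand and 2 target genes, where 2.99% of all genes had one, and the 2 target genes, LGR5 and ZNRF3, were among the 3 of the receptor list, so that there were 4 genes in all. The other comparisons gave at most 1 of a list, where 0.871 to 3.45% of all genes had such a p. In the 6 comparisons, 0 list genes were also found with DESeq2, limma-voom and limma after quantile normalization.

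Among the other receptor genes, ADGRA2 (GPR124), which works with RECK in the response to WNT7A and WNT7B, was at 2.17 to 3.27 CPM in S534A and 2.98 to 5.39 CPM in ∆GAG-BG. Its log2 fold change was -0.57 (unadjusted p = 0.0245, adjusted p = 0.890 by edgeR). LGR5, an R-spondin receptor, had 5 to 10 counts a library in S534A and 7 to 22 in ∆GAG-BG, and a log2 fold change of -1.23 (unadjusted p = 0.0399, adjusted p = 0.890 by edgeR). It was at 0.249, 0.167 and 0.606 CPM in S534A libraries 1, 2 and 3. In the libraries labelled ∆GAG-BG 1, 2 and 3 it was at 0.317, 0.882 and 0.993 CPM. The higher values thus lay in ∆GAG-BG 2 and 3, where TGFBR3 went against the label. ZNRF3, a ubiquitin ligase that removes Frizzleds from the membrane, had a log2 fold change of 0.33 in the same comparison (unadjusted p = 0.0411, adjusted p = 0.890 by edgeR). KREMEN1, which binds DKK1 and LRP6, was at 2.01 to 2.94 CPM in S545A and 3.11 to 3.95 CPM in control vector, groups that did not overlap (log2 fold change -0.45, unadjusted p = 0.0425, adjusted p = 1.00 by edgeR).

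Of the ligand genes, WNT2B was at 1.49, 2.83 and 2.24 CPM in S534A libraries 1, 2 and 3 and at 1.08, 1.52 and 1.67 CPM in S545A, groups that overlapped. Its log2 fold change in S545A against S534A was -0.62 (unadjusted p = 0.0288, adjusted p = 0.702 by edgeR). It was 0.67 in S534A against control vector (unadjusted p = 0.0197, adjusted p = 0.871 by edgeR). In S534A against ∆GAG-BG it was 0.55 (unadjusted p = 0.0471, adjusted p = 0.890 by edgeR). WNT7B was at 6.09 to 7.97 CPM in ∆GAG-BG and 4.11 to 5.67 CPM in control vector (log2 fold change 0.45, unadjusted p = 0.0233, adjusted p = 1.00 by edgeR). WNT5A, a ligand that acts mostly without β-catenin, was at 15.1 to 20.7 CPM in 11 libraries and at 48.2 CPM in S534A 2, the library with the lowest FZD2.

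Of the transducer and target genes, LEF1, a transcription factor that β-catenin binds, was at 3.84, 5.23 and 2.49 CPM in S534A libraries 1, 2 and 3 and at 2.94, 1.66 and 1.23 CPM in S545A. Its log2 fold change in S545A against S534A was -1.00 (SE 0.326, unadjusted p = 0.00952, adjusted p = 0.702 by edgeR), and the groups overlapped. AXIN2, a feedback inhibitor and common readout of β-catenin signalling, had 5 to 26 counts a library, and its log2 fold change in S545A against ∆GAG-BG was -1.30 (unadjusted p = 0.0290, adjusted p = 1.00 by edgeR). It was at 0.349, 0.343 and 0.171 CPM in S545A libraries 1, 2 and 3. In the libraries labelled ∆GAG-BG 1, 2 and 3 it was at 0.272, 1.21 and 0.632 CPM. The higher values thus lay in ∆GAG-BG 2 and 3, where TGFBR3 went against the label. VANGL2, a core protein of planar cell polarity, was at 4.43 to 10.8 CPM with no unadjusted p under 0.05 in any comparison.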

How the data were processed

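RNA of 12 HEYA8 libraries was sequenced as paired reads. The authors deposited 1 table of raw counts per gene for 56269 genes, made with FastQC, Trim Galore 0.4.5, STAR 2.4, SAMtools 1.2 and featureCounts per the submitters' processing notes. These notes name a mouse build, whereas the table's coordinates are those of human GRCh38. The kit is directional per the labels, but the strand setting of the counting is not given in the sources used here.

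From the deposited counts, 16069 genes passed edgeR's filterByExpr (minimum count 10), were scaled by TMM and were tested with edgeR 4.0.16 (R 4.3.3, quasi-likelihood, robust) with all 12 libraries and 4 groups in a single model (8 residual degrees of freedom). Log2 CPM used a prior count of 2. All 6 comparisons and an F test were made, with Benjamini-Hochberg adjustment over all genes tested at a threshold of 0.05. Single values were compared by two-sided exact permutation tests. RPKM used the table's length column. DESeq2 1.42.0 and limma 3.58.1 were alternatives, beside other scalings, filters and left-out libraries. The tests were tested on simulated data.

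The members and the gene lists were chosen with earlier results of these data known. All members are named, with fold changes in S545A against S534A, and elsewhere those at an unadjusted p under 0.05 or without overlap. Of each list, genes with an adjusted p under 0.05 and the 3 with the smallest F test p were named, and for the 2 most variable members the 3 genes most correlated with them. ZNRF3, extremes of ranges and marker genes were named after their values were seen. MESD was matched to MESDC2. Replicate numbers have no shared batch in the labels. Libraries of the same number deviated from their group means together in S545A and control vector (correlations of 0.597, 0.305 and 0.291), so the numbers were taken as pairs there, on these correlations alone. In both groups libraries 2 and 3 lay close together and apart from library 1. The correlations therefore cannot tell number 2 from number 3, and do not show a pairing by number.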

Additional observations from a re-analysis of the deposited data

How the results depend on the processing

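The fit without the 4 libraries whose TGFBR3 goes against the label is read for effect sizes only. Under every other alternative run, all 6 comparisons had 0 members and 0 list genes at an adjusted p under 0.05, and the F test had 0 members. The F test of the list genes was not run under alternatives. Of members at an unadjusted p under 0.05, S545A against S534A had 1 and had 0 with limma-voom, with limma on quantile-normalized values, with no filter on low counts, with at least 10 counts in every library and with libraries 2 and 3 summed, and 0 to 3 with single replicates left out (FZD2, FZD8 and LRP5 without S534A 3). S534A against ∆GAG-BG had 0, and 0 to 2 with single replicates left out. S545A against ∆GAG-BG had 0 to 2 (FZD1 and FZD7 without ∆GAG-BG 1), and S534A against control vector 0 to 3 (FZD2, FZD8 and LRP5 without control vector 1). ∆GAG-BG against control vector had 0 with single replicates left out. The cause of these changes was not tested, except that fewer libraries or genes enter some fits. The share of all genes under 0.05 in each of these fits is not given, so the counts have no background beside them.

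With the replicate number as a block, the unadjusted count was 1 in S545A against S534A, where it was LRP5 in place of FZD1, and 1 (LRP5) in S534A against ∆GAG-BG. The numbers are not taken as pairs in these comparisons, with correlations of same-numbered libraries of -0.235 to 0.394 and -0.125 to 0.161. The block changed no other call, including S545A against control vector. The paired permutation of the summed Frizzled level there (-1.82 RPKM, exact p = 0.25) was added after seeing the data.

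In S545A against S534A, fold changes near 0 changed sign. FZD4 was at -0.017 with quantile-normalized limma, -0.00077 with RLE size factors, -0.011 by library size only, -0.0064 with no filter and -0.0016 without the 4 libraries. FZD6 was at -0.0074 by library size only, -0.0045 with no filter and -0.025 with libraries 2 and 3 summed. With single replicates left out, log2 fold changes ran from -0.59 to 0.071 for FZD3, -0.067 to 0.084 for FZD4, -0.049 to 0.090 for FZD6, -0.34 to -0.12 for FZD5, -0.072 to 0.19 for FZD7 and -0.067 to 0.15 for LRP6. The summed Frizzled difference ran from -0.205 to 5.73 RPKM in S545A against S534A, -4.47 to 1.47 in S534A against ∆GAG-BG, -0.154 to 3.34 in S545A against ∆GAG-BG, -5.73 to -1.06 in ∆GAG-BG against control vector, -7.53 to -1.57 in S534A against control vector and -4.67 to 0.294 in S545A against control vector.

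Depth limits FZD3, with 12 to 40 counts a library, and AXIN2 and LGR5, with 5 to 26. The 3 libraries a group limit each comparison, and FZD8 has intervals over 2 log2 units wide.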
